A study of Homo sapiens with 6 samples.

Results

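Human chromosome 19 carries a dense set of zinc finger genes, and their promoters and gene bodies were examined here in the open chromatin of a myeloma cell line. The set was every protein-coding gene of GENCODE release 44 on chromosome 19 whose symbol starts with ZNF, which gave 249 of 20033 protein-coding genes. This rule used names and positions and no measured value, but the genes were chosen with earlier results of these data known. For each gene, peaks within 1000 bp of any of its annotated transcription start sites (TSSs) were recorded as promoter peaks, and peaks elsewhere in the gene as gene body peaks.

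The cells were MM.1S, an established multiple myeloma line, profiled by Omni-ATAC, in which a transposase cuts accessible DNA so that fragments collect at open sites. One group of 3 libraries had been exposed to 120 nM CB-6644, an inhibitor of the ATPases RUVBL1 and RUVBL2, for 72 h, and the other 3 libraries came from cells given the vehicle DMSO. Both groups were sorted for live cells before the assay, so cells that died are not represented. The comparison asks whether inhibiting RUVBL1/2 altered accessibility at these genes.

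Most of these genes encode C2H2 zinc finger proteins, in which each finger contacts a few bases of DNA. Many carry a KRAB box, which recruits TRIM28 and through it the histone methyltransferase SETDB1, and this machinery is known for silencing transposable elements. The genes arose by repeated tandem duplication, so they lie in clusters and resemble each other. Their promoters are usually rich in CpG dinucleotides, while the bodies and 3' ends of many of them are known to carry heterochromatin marks.

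In the coding sequences, 247 of the 249 genes had at least 1 match to the C2H2 spacing pattern, with a median of 12 and at most 36 fingers. The other two, ZNF625-ZNF20 and ZNF816-ZNF321P, are readthrough genes. A KRAB-like pattern was found in 177 genes, or 71.1%. That pattern requires letters that some KRAB boxes lack, so a gene without a match may still hold one.

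The promoters of 6 genes are shown first, because they cover the range of what was measured. ZNF627 had one of the strongest promoter peaks, ZNF556 and ZNF345 had lower values after CB-6644, ZNF460 had higher values, and ZNF112 and ZNF132 had no promoter peak. Each run spans 250 bases before to 50 after the RefSeq start on GRCh38.p14, read 5' to 3' on the gene's strand. Peaks covered all 300 bases of the ZNF345 window in CB-6644 replicate 1 and DMSO replicates 2 and 3. They covered 159 in DMSO replicate 1, 130 in CB-6644 replicate 3 and 0 in CB-6644 replicate 2. Any peak was counted here, not only the strongest promoter peak that was compared. The compared ZNF345 peak had a median width of 148.5 bp over the libraries. In CB-6644 replicate 2 it lay outside this window, so the printed letters need not be those under the compared peak. Capitals mark CCAAT, the core of NFY sites, and CCGGAAG, an ETS-type site, on either strand.
ZNF627: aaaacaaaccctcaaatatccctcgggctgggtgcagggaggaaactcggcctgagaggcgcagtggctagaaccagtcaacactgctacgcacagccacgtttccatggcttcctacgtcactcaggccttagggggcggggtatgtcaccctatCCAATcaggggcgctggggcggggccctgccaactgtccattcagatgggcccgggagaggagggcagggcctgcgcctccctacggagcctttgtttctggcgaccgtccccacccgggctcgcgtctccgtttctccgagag
ZNF556: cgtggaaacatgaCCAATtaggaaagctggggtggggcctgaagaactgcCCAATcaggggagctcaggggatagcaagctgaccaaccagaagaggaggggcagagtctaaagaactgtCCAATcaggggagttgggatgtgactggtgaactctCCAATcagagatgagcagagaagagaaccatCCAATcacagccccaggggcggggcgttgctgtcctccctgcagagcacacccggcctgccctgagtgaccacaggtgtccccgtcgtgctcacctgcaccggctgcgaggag
ZNF345: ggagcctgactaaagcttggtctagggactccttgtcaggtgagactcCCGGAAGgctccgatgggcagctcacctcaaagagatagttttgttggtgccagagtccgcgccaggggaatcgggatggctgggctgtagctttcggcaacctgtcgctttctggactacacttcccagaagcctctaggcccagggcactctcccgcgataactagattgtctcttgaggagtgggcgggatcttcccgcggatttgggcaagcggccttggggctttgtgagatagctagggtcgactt
ZNF460: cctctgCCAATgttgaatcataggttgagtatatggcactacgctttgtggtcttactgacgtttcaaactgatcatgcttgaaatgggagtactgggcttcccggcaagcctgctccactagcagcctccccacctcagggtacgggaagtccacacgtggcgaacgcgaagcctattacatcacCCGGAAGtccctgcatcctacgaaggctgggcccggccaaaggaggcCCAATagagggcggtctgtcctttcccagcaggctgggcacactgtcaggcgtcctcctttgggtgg
ZNF112: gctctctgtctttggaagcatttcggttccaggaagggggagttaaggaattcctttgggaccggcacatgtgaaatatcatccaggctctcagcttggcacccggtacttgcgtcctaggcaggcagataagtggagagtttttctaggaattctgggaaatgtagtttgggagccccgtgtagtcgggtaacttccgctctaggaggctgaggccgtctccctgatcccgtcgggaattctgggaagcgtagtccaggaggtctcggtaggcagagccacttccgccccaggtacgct
ZNF132: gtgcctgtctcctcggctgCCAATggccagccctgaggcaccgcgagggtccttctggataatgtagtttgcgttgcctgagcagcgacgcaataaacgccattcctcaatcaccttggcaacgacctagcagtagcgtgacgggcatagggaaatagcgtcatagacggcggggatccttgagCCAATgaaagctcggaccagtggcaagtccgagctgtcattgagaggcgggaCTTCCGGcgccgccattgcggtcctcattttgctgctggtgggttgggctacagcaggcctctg

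The windows lie at chr19:11597233-11597532 for ZNF627, chr19:2867085-2867384 for ZNF556, chr19:36850626-36850925 for ZNF345 and chr19:57279732-57280031 for ZNF460, all on the plus strand. Those of ZNF112 at chr19:44356655-44356954 and ZNF132 at chr19:58440104-58440403 are on the minus strand. The ZNF556 window held 5 copies of CCAAT and that of ZNF627 held 1. ZNF132 had 2 copies of CCAAT and 1 ETS-type match without any peak, so these letters occurred in a window without a call.

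Across the 218 zinc finger genes with an entry in the RefSeq promoter table, CCGGAAG or its complement occurred in 45.4% of the windows, against 10.7% of all 27305 promoters of that length. CCAAT occurred in 54.1% against 35.7%, and GGGCGG, the core of SP sites, in 67.9% against 44.6%. TATAAA went the other way, with 1.83% against 11.95%. The median CpG observed-to-expected ratio was 0.763, against 0.580 over all promoters. The table of all promoters includes noncoding genes, and a match is a string of letters and not a bound site. The other strings searched were GCGCATGC (NRF1) in 4.13% against 3.27%, CTCGCGAG (BANP) in 0.917% against 1.06%, ACTACAATT (ZNF143) in 1.38% against 0.370%, AAGATGGC (YY1) in 6.42% against 3.03%, TGACGTCA (CRE) in 3.21% against 1.98% and CACGTG (E-box) in 4.13% against 7.43%.

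The lists held 58563 to 79020 peaks per library. The authors' peak caller ran on each library separately, and the lists give no read totals. Background tags recovered from each peak's fold and p-value stood in for depth. They ran from 3.20 to 7.05 per kb with CB-6644 and from 6.40 to 9.08 with DMSO, so the DMSO lists were on the whole the deeper ones. CB-6644 replicate 2 and DMSO replicate 1 stood apart with shortest peaks of 65 and 91 bp, against 131 to 152 bp in the other 4 libraries. This pair is termed the short-peak libraries here, and the lists give no fragment lengths. Promoter peaks were present in all 6 libraries at 7 of 7 plasma cell markers, among them SDC1, IRF4 and XBP1. The T cell genes CD3D and CD3E and the monocyte gene LYZ had none, but CD14, COL1A1 and EPCAM had promoter peaks in all 6 libraries, so an open promoter did not by itself mark a cell type.

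Promoters of the zinc finger genes were mostly either called in every library or called in none. Of the 249 genes, 165 (66.3%) had a promoter peak in all 6 libraries, 70 (28.1%) had none in any, and 14 (5.62%) had one in some. Over all protein-coding genes the shares were 66.2%, 27.7% and 6.08%.

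**Figure D1:**
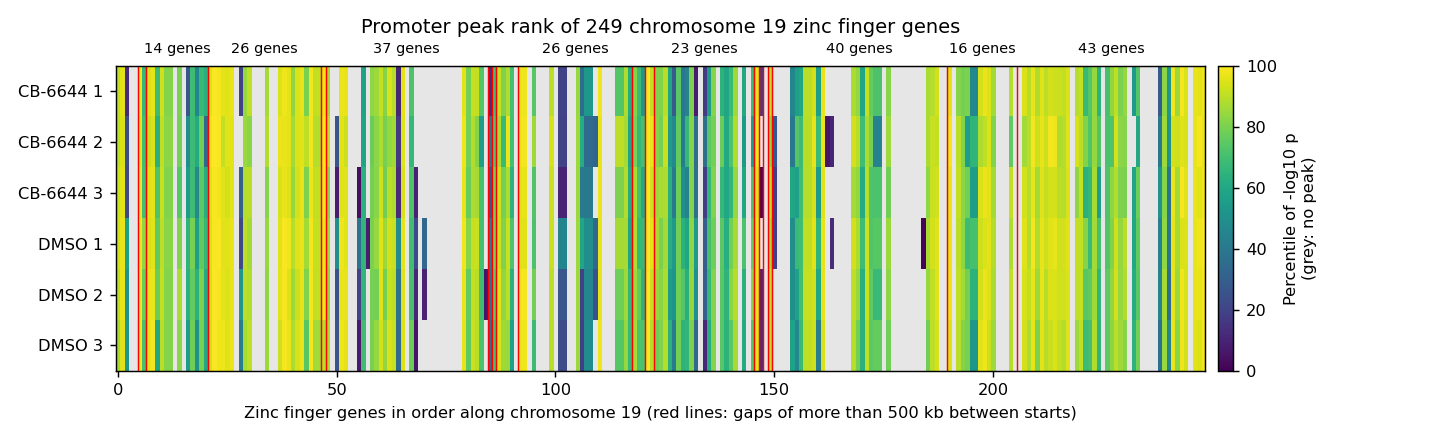
Each column is 1 of the 249 zinc finger genes in order along chromosome 19 and each row 1 library; colour gives the percentile of the strongest promoter peak's -log10 p among all peaks of that library, and grey means no peak. The columns look alike from row to row, with 165 genes coloured in all 6 rows and 70 grey in all 6.

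By library, 168, 170 and 172 of the genes had a promoter peak in CB-6644 replicates 1, 2 and 3, and 176, 174 and 171 in DMSO replicates 1, 2 and 3. The groups overlapped. The share was 68.3% ± 0.803 (SD, n = 3) with CB-6644 and 69.7% ± 1.01 (SD, n = 3) with DMSO, a difference of -1.47 percentage points (exact two-sided permutation p = 0.2, and 0.467 after adjustment over 7 tests). With 3 libraries against 3 this test cannot go below 0.1. The other 1227 protein-coding genes on chromosome 19 had 62.8% with CB-6644 and 64.03% with DMSO, and the difference relative to them was -0.223 points (exact permutation p = 0.8, adjusted 0.933).

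The zinc finger genes had a promoter peak more often than their neighbours on the chromosome and less often than ZNF genes elsewhere in the genome. Their share exceeded that of the other chromosome 19 genes by 4.70 to 6.57 points in each of the 6 libraries, with a mean of 5.60 (exact sign-change permutation over 6 libraries, p = 0.0312, the smallest it can give, and 0.109 after adjustment). The order depended on the settings: it was -0.428 points with windows of 2500 bp and 0.0270 with the 20000 strongest peaks of each list. The 267 ZNF genes on other chromosomes had promoter peaks in 84.6% to 85.8% of cases, which put the chromosome 19 set lower. The difference was -16.1 points (same exact permutation test, unadjusted p = 0.0312). These p-values measure the spread between libraries and not between genes.

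Among the promoters called in all 6 libraries, peak strength ranged widely, with mean percentiles from 23.96 at ZNF284 to 99.7 at ZNF574. The median percentile was 84.9, 85.6 and 85.4 in CB-6644 replicates 1, 2 and 3 and 86.8, 85.8 and 85.5 in DMSO replicates 1, 2 and 3, where 100 is the strongest peak of a list. The other chromosome 19 genes had medians of 89.4 to 91.9. The gap between the sets differed by -0.437 percentile points between treatments (exact permutation p = 0.6, adjusted 0.84). The 165 genes used 156 distinct peaks, because 9 peaks each served a pair of neighbouring zinc finger genes. Peak summits lay close to the start, with a median position of -37.5 bp (upstream), and within 150 bp of a TSS for 154 of the 165.

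The highest mean percentiles belonged to ZNF574, ZNF627, ZNF557, ZNF823 and ZNF564, all between 97.2 and 99.9 in every library. Of these, ZNF627, ZNF823 and ZNF564 lie in the cluster at 11.5 to 12.6 Mb. Several genes with a studied role were open throughout. ZNF91 and ZNF93, KRAB proteins that bind SVA and L1 retrotransposons, ran from 75.6 to 82.1 and from 92.5 to 96.8. ZNF274, which recruits SETDB1 to the 3' ends of zinc finger genes, ran from 82.0 to 86.7. ZNF146, which consists almost wholly of fingers, ran from 95.4 to 98.7.

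Other genes had no promoter peak in any library. They included ZNF331, ZNF382, ZNF569, ZNF57 and ZNF114 among the genes that were looked up whatever their values. In order of symbol the list began with ZNF112, ZNF114, ZNF132, ZNF135, ZNF14, ZNF154, ZNF160, ZNF177, ZNF208 and ZNF223. A missing peak means that the site did not pass the caller's threshold at this depth and not that it was closed.

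Promoters with a peak in all 6 libraries, termed open here, and those with none in any, termed peakless, had similar composition. The median CpG ratio was 0.765 in both the 147 open and the 60 peakless genes with a promoter entry, and median GC content was 60.7% and 59.5%. CCGGAAG occurred in 44.2% of open and 45.0% of peakless windows, and CCAAT in 51.7% and 53.3%. AAGATGGC, the core of YY1 sites, occurred in 13 of 147 open windows and 1 of 60 peakless ones. Repeated sequence was also similar: of the 32-base words in the promoter windows, a median of 87.6% occurred once in the genome for open genes and 88.5% for peakless ones, and the lowest value of any gene was 51.3%. Of the 177 genes with a KRAB-like pattern 61.6% were open in all libraries, against 77.8% of the 72 without a match. Genes without a match may still hold a KRAB box, so this split is not one by KRAB content. The matches were uneven: 2 of 23 genes at 43.5 to 44.5 Mb, where 82.6% were open, and 38 of 43 at 57.2 to 58.5 Mb, where 76.7% were. These are descriptions with no test, since neighbouring genes share descent.

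Peakless promoters often lay side by side. Taking neighbours whose starts lay within 500 kb as a cluster gave 20 clusters, of which 8 held 10 or more genes and 225 genes together. The share open in all 6 libraries ran from 47.5% of 40 genes at 51.6 to 53.6 Mb and 48.6% of 37 genes at 19.7 to 24.1 Mb to 82.6% of 23 genes at 43.5 to 44.5 Mb and 85.7% of 14 genes at 8.51 to 9.79 Mb. The longest stretch without a promoter peak was 8 consecutive zinc finger genes over 0.968 Mb, from ZNF676 through ZNF729, ZNF98, ZNF492, ZNF99, ZNF723 and ZNF728 to ZNF730. A second stretch ran over 7 genes from ZNF816-ZNF321P to ZNF677. In all, 38 of the 70 peakless genes fell in 9 stretches of at least 3. Stretches were not counted for other genes, so there is no background for this number. The second stretch also counts ZNF816 beside the readthrough gene ZNF816-ZNF321P.

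**Figure D2:**
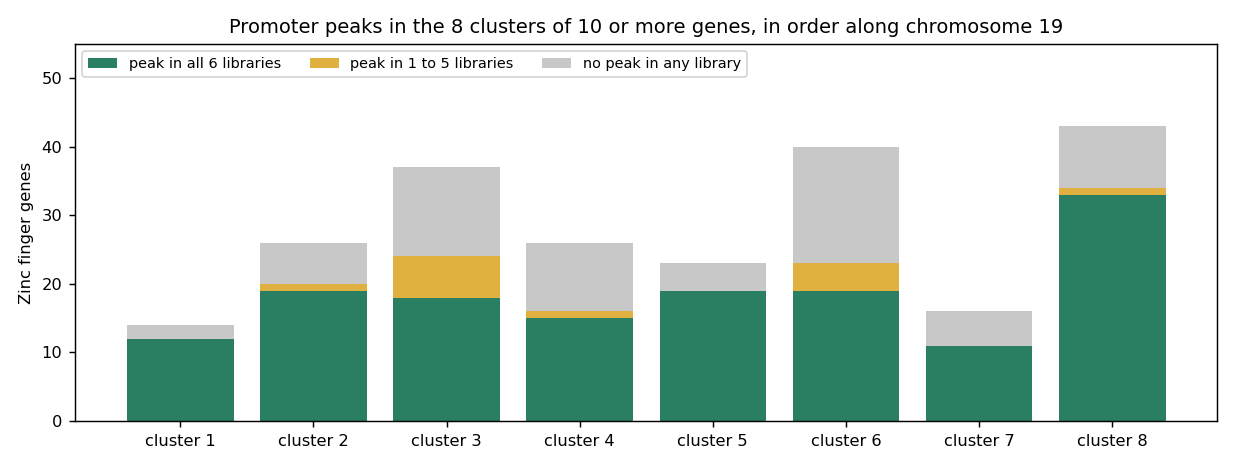
Bars count the zinc finger genes of each of the 8 clusters of 10 or more genes, in order along the chromosome, divided by whether the promoter had a peak in all 6 libraries, in 1 to 5, or in none. The third and sixth clusters, with 37 and 40 genes, have the lowest shares open in all libraries, 48.6% and 47.5%.

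No zinc finger promoter was called in all libraries of one group and none of the other. The background was 61 DMSO-only promoters of 20033 genes (0.304%) and 12 CB-6644-only promoters (0.0599%), and 0 of 249 is near both. The 14 promoters called in some libraries had 15 calls in the CB-6644 libraries and 26 in the DMSO libraries, with more in DMSO for 10 genes, more in CB-6644 for 2 and equal numbers for 2. The same lean was present over the 1218 protein-coding genes called in some libraries, where 65.9% had more calls in DMSO and 61.5% of all calls were in DMSO, against 71.4% and 63.4% for the zinc finger genes. Their peaks were weak, and 12 of the 14 never rose above the 50th percentile.

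Of these 14 genes, 6 lie in the cluster at 19.7 to 24.1 Mb. ZNF257 was called in DMSO replicates 1 and 2 at percentiles 32.9 and 9.53 and in no other library. ZNF486 was called in CB-6644 replicate 3 at 3.20 and in all 3 DMSO libraries at 37.4, 19.3 and 7.25. ZNF43 had the same pattern, at 10.1 with CB-6644 and at 22.1, 11.5 and 5.60 with DMSO. Background tags were 6.40 per kb in DMSO replicate 1, which held the strongest of these calls, and 7.05 in CB-6644 replicate 3, and the part of depth in these calls was not tested.

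Peak height was then compared promoter by promoter. Fold enrichment of the strongest promoter peak was put on a log2 scale and quantile-normalised, and limma was fitted to the 13263 protein-coding genes with a promoter peak in all 6 libraries. Of the zinc finger genes, 165 of 249 could be tested. None had an adjusted p below 0.05 in either direction, against 2 genes called lower (0.0151%) and 1 called higher (0.00754%) among all promoters. At an unadjusted p below 0.05 there were 11 zinc finger promoters lower and 0 higher, against 621 lower and 523 higher over all promoters. These counts depended on the measure and the libraries. With -log10 p in place of fold they were 3 lower and 7 higher of 165, against 611 and 572 of 13263 promoters. With the 20000 strongest peaks they were 1 and 0 of 113, against 341 and 303 of 9501. When CB-6644 replicate 2 was left out they were 5 and 2 of 167, against 694 and 519 of 13404.

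The differences of the 165 promoters lay mostly a little below 0. The median was -0.07 on the log2 scale, with 108 below 0, against 0.01 over all promoters tested, 0.02 for the other chromosome 19 genes and -0.02 for ZNF genes elsewhere. The sign of the zinc finger median depended on the libraries and the measure. The median was 0.01 without CB-6644 replicate 2 and 0.03 with -log10 p in place of fold. Leaving out both CB-6644 replicate 2 and DMSO replicate 1 gave -0.02, against 0.01 over all promoters. The 3 CB-6644 values lay wholly below the 3 DMSO values for 9 of the 165 (5.45%) and wholly above for 5 (3.03%), against 6.95% and 8.01% of all promoters tested. Both shares were below the background.

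The largest differences towards lower values after CB-6644 were at ZNF556 and ZNF738, both with a KRAB-like pattern. The normalised log2 fold at ZNF738 (chr19:21358930-21388582, plus strand) was 3.21, 2.87 and 3.22 in CB-6644 replicates 1, 2 and 3 and 3.85, 3.97 and 4.02 in DMSO replicates 1, 2 and 3. The groups did not overlap, and the difference was -0.85 (SE 0.12; limma adjusted p = 0.0909). Over the alternatives the adjusted p ran from 0.0295 to 0.570. Leaving out CB-6644 replicate 2 gave 0.0427, and leaving out both short-peak libraries gave 0.0295. In percentile terms ZNF738 stood at 10.2, 16.4 and 12.2 with CB-6644 and 48.3, 37.2 and 34.1 with DMSO.

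ZNF556 (chr19:2867335-2883445, plus strand), whose promoter with 5 copies of CCAAT is printed above, had values of 3.27, 3.06 and 3.53 with CB-6644 and 3.93, 4.15 and 4.37 with DMSO. Every CB-6644 value was below every DMSO value. The difference was -0.87 (SE 0.15; limma adjusted p = 0.189), and the adjusted p ran from 0.0440, with -log10 p as the measure, to 0.777 over the alternatives. In percentile terms ZNF556 stood at 11.8, 23.97 and 21.2 with CB-6644 and 56.7, 51.4 and 52.6 with DMSO.

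Next among the genes whose groups did not overlap were ZNF345 and ZNF790, a pair that faces away from each other and shares 1 promoter peak. Its values were 3.52, 2.96 and 3.13 with CB-6644 and 3.74, 3.57 and 3.67 with DMSO, a difference of -0.46 (SE 0.15; limma adjusted p = 0.465). ZNF235, in the cluster at 43.5 to 44.5 Mb, had 4.58, 4.26 and 4.62 against 4.68, 5.14 and 4.92, a difference of -0.43 (SE 0.15; limma adjusted p = 0.512). Larger differences with overlapping groups were found at ZNF221 and ZNF222 in the same cluster, -0.70 and -0.65, and at ZNF426, -0.58. The peak shared by ZNF345 and ZNF790 was weak, at percentiles of 20.3, 19.3 and 10.1 with CB-6644 and 45.1, 27.2 and 23.4 with DMSO. That of ZNF235 stood at 66.2 to 72.5 with CB-6644 and 74.3 to 82.2 with DMSO.

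On the higher side the largest difference was 0.38 at ZNF585A (SE 0.22; limma adjusted p = 0.672), followed by 0.25 at ZNF333, and in both the groups overlapped. Among genes without overlap, ZNF460 had 4.15, 4.37 and 4.10 with CB-6644 and 4.03, 4.03 and 3.87 with DMSO, a difference of 0.23 (SE 0.10; limma adjusted p = 0.579). ZNF490 and ZNF791, another pair that shares a promoter peak, differed by 0.23 (SE 0.10; limma adjusted p = 0.606). ZNF497 differed by 0.15 and ZNF324B by 0.05. None of these passed the test.

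**Figure D3:**
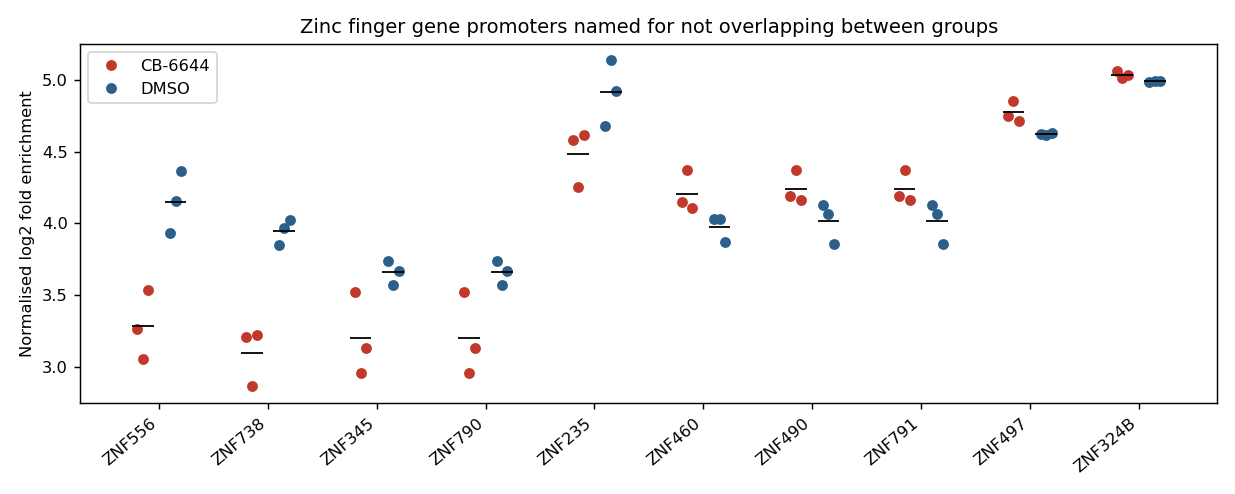
Points are the normalised log2 fold enrichment of the strongest promoter peak in each of 3 CB-6644 and 3 DMSO libraries, with bars at the group means, for the 5 genes lower and the 5 genes higher after CB-6644 with the largest differences among those whose groups did not overlap. ZNF556 and ZNF738 show the widest gaps, -0.87 and -0.85; ZNF345 and ZNF790 share a peak, as do ZNF490 and ZNF791.

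ZNF536 (chr19:30224891-30713586), a neural regulator without a KRAB-like pattern that stands alone outside the clusters, had a weak promoter peak. Its percentiles were 12.7, 39.2 and 26.2 with CB-6644 and 39.5, 38.5 and 34.1 with DMSO, and the groups overlapped. It also had the longest gene body of the set, 482 kb beyond its TSS windows.

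The partners through which KRAB proteins silence chromatin were looked up as a list of 21 genes. All 21 had a promoter peak in all 6 libraries, and 0 of 21 had an adjusted p below 0.05 by limma in either direction. An unadjusted p below 0.05 was found for 0 of 21, against 1144 of the 13263 promoters tested. The median difference was 0.03, beside 0.01 over all promoters, and single genes ran from -0.50 at DNMT3B to 0.39 at PPHLN1. TRIM28, the corepressor that binds KRAB boxes, stood between percentiles 85.8 and 91.7 and differed by -0.12 (SE 0.10; limma adjusted p = 0.749). SETDB1, which writes H3K9 methylation at its targets, stood between 92.6 and 94.7 and differed by 0.03 (SE 0.07; limma adjusted p = 0.923).

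Beyond the promoters, the bodies of the zinc finger genes were nearly free of peaks. The libraries held 26, 37 and 27 gene body peaks in CB-6644 replicates 1, 2 and 3 and 29, 28 and 28 in DMSO replicates 1, 2 and 3, over 6.69 Mb. This is 0.436 ± 0.0593 peaks per 100 kb (SD, n = 6), against 3.16 ± 0.394 for the other chromosome 19 genes over 20.9 Mb. The density in other genes was 6.67 to 8.33 times higher in each library, and the mean log2 ratio was -2.86 (exact sign-change permutation over 6 libraries, p = 0.0312, adjusted 0.109). Against ZNF genes on other chromosomes, which had 1.71 ± 0.284 peaks per 100 kb, the log2 ratio was -1.96 (same exact permutation test, unadjusted p = 0.0312).

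**Figure D4:**
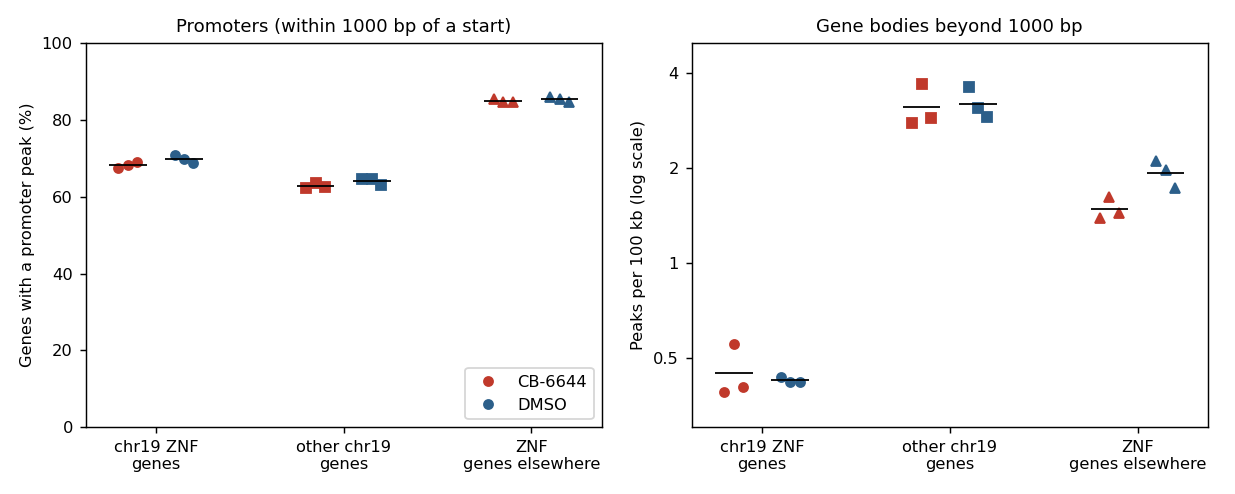
The left panel gives the percentage of genes with a promoter peak and the right panel the gene body peaks per 100 kb on a log axis, for chromosome 19 zinc finger genes, other chromosome 19 genes and ZNF genes elsewhere; points are libraries and bars group means. The chromosome 19 zinc finger genes lie near the other chromosome 19 genes at promoters and 6.67 to 8.33 times below them in gene bodies.

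CB-6644 did not shift this density beyond the spread between libraries. It was 0.448 ± 0.0909 (SD, n = 3) peaks per 100 kb with CB-6644 and 0.423 ± 0.00862 (SD, n = 3) with DMSO (exact permutation p = 1, adjusted 1). The highest of the 6 values, 0.553, came from CB-6644 replicate 2, and without that library the difference turned from 0.0249 to -0.0274. Relative to the other chromosome 19 genes the log2 difference was 0.11 (exact permutation p = 0.3, adjusted 0.525).

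Merged over libraries, the gene body peaks formed 40 regions. Of these, 23 were called in all 6 libraries, 9 in 1 library only and none in all of one group and none of the other, while among 897 regions in other chromosome 19 genes 21 were DMSO-only (2.34%) and 11 CB-6644-only (1.23%). The regions were concentrated in few genes. ZNF490 and ZNF787 had 19 peaks each summed over the 6 libraries, ZNF709 had 18, ZNF675 had 17 and ZNF627 had 16.

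Of the 23 regions called in all 6 libraries, 4 had CB-6644 percentiles wholly below the DMSO ones and 2 wholly above, or 17.4% and 8.70%, against 19.4% and 7.8% of the 423 such regions in other chromosome 19 genes. In ZNF586 a region at chr19:57775192-57775461 stood at 26.8, 40.9 and 24.3 with CB-6644 and 61.4, 54.9 and 62.6 with DMSO. One in ZNF541 stood at 21.2, 35.6 and 34.9 against 55.7, 49.6 and 47.4. The other two of the 4 lay in the overlap of ZNF490 and ZNF791. Both of the higher ones were in ZNF675. There, a region at chr19:23527781-23528300, 129 kb from the nearest protein-coding TSS, had percentiles of 88.7, 86.8 and 87.6 with CB-6644 and 79.7, 82.9 and 82.1 with DMSO. In ZNF787 the strongest, at chr19:56111660-56112044, ran from 79.1 to 95.1. A pair of regions lay in ZNF91, both called in all 6 libraries, 15.4 and 16.0 kb from its nearest TSS. ZNF112 had no promoter peak but 1 body region, at chr19:44344158-44344730, with percentiles of 69.2 to 92.6.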

How the data were processed

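Peaks of 6 Omni-ATAC libraries were analysed, grouped by the labels. Per the submitters' notes, reads were aligned to hg38 with Bowtie2 2.4.2 and peaks called with MACS3 3.0. Fold enrichment, a ratio of pile-up to local background, was deposited by the authors, and the deposited -log10 p and -log10 q values are theirs too. None is scaled between libraries. The lists hold no counts, so count models could not be used.

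Peaks of the autosomes (1 to 22), X and Y were joined to GENCODE release 44 by at least 1 bp, and 0 ran past a chromosome end. Percentiles rank -log10 p within a list. Groups were set against each other with exact two-sided permutation, sets by exact sign changes over libraries, with Benjamini-Hochberg adjustment over 7 tests, and promoter folds with limma 3.58.1 in R 4.3.3 (adjusted p below 0.05), which was tested on simulated data. The labels do not say whether replicates were separate cultures, so p-values measure the spread between libraries. Scripts used Python 3.11.15. Sequences are from RefSeq (GRCh38.p14).

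The genes and lists were chosen with earlier results of these data known. Named genes are those not overlapping between groups with the largest differences (5 per direction), the 5 highest percentiles, up to 10 without a promoter peak by symbol, the 5 with most body peaks, and genes looked up whatever their values. Genes called in some libraries, ZNF221, ZNF222, ZNF284, ZNF333, ZNF426, ZNF585A and single body regions were added after their values were seen. Printed promoters were taken from the named genes, the strongest being the first whose window lay under a peak in every library.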

Additional observations from a re-analysis of the deposited data

How the results depend on the processing

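Of the 168 alternative values, 133 kept their direction and their side of the threshold or, for counts, stayed within 1.5 times. With the 20000 strongest peaks, the detection difference was 0.937 points, the relative detection difference 0.176 and the relative percentile difference 1.15, all reversed, and the excess of the zinc finger genes over other chromosome 19 genes was 0.0270 points. That excess was -0.428 points with windows of 2500 bp and -16.1 against ZNF genes elsewhere. Without both short-peak libraries, the relative detection difference was 0.381, the body density difference -0.0224, the excess 5.69 points and the body log2 ratio -2.84. With 4 libraries the sign-change p cannot go below 0.125. Leaving out 1 library gave an excess of 5.41 to 5.78 points and a body log2 ratio of -2.88 to -2.82, with p = 0.0625 by exact sign changes, the smallest that 5 libraries can give. Over the same fits the relative detection difference ran from -0.760 to 0.171 and the body density difference from -0.0274 to 0.0548, with both reversed only where CB-6644 replicate 2 was left out. Counts that were 0 rose to 2 DMSO-only promoters when CB-6644 replicate 3 was dropped and 1 when DMSO replicate 3 was. DMSO-only body regions rose to 2 without DMSO replicate 1 or without both short-peak libraries. CB-6644-only body regions rose to 1 without CB-6644 replicate 1. Requiring 2 of 3 libraries gave 1 DMSO-only promoter, 2 DMSO-only and 1 CB-6644-only body regions. With limma, ZNF556 was the 1 zinc finger promoter called lower with -log10 p as the measure, among 20 called lower of 13263 promoters. ZNF738 was the 1 called lower without CB-6644 replicate 2, among 15 of 13404. It was also the 1 called lower without both short-peak libraries, among 22 of 13444. The cause of these changes was not tested.

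The labels do not say whether the replicate numbers pair the libraries. Same-numbered libraries correlated at -0.429, -0.333 and 0.222 in their deviations from the group means. Differently numbered ones ran from -0.418 to 0.543, the highest being CB-6644 replicate 2 with DMSO replicate 1. These values cannot decide the pairing, because the libraries that stood apart in peak width carry different numbers. With a replicate block, limma called 0 zinc finger promoters lower and 0 higher, and the detection difference of -1.47 points had an exact p of 0.5, where 3 pairs cannot go below 0.25. The alternative that left peaks at any protein-coding promoter out of gene bodies was chosen after seeing the data and gave a log2 ratio of -2.88. The lists hold no read totals, so depth limits what an absent peak means.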
